A study of Caenorhabditis elegans with 6 samples.

Results

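The annular furrow collagens are the products of 6 genes, dpy-2, dpy-3, dpy-7, dpy-8, dpy-9 and dpy-10, taken by gene symbol from a table of 46745 named genes of the nematode Caenorhabditis elegans. Messenger RNA was sequenced from 3 samples of the mutant plp-1(ok2155), described by the submitters as carrying a loss-of-function allele, and from 3 samples of the wild-type strain N2. All were hermaphrodite cultures holding embryos, larvae and adults, raised at 20 °C on OP50 bacteria until the plates were crowded but not starved. The labels list no transgene or drug for either group, and they state neither the age make-up of a culture nor whether the mutant strain was outcrossed. The submitters' design text counts the 3 samples per group as biological replicates.

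The cuticle is the collagen coat that the epidermis of the worm secretes before hatching and again at each larval moult. Furrows are the circular grooves that divide it into rings, and loss of any of these 6 collagens removes the furrows and leaves the animal short and stout, the dumpy form that gives the genes their names. In C. elegans, worms without furrows are also known to keep on the genes that answer osmotic stress, wounding and toxins, for which gpdh-1, nlp-29 and gst-4 serve as reporters. The transcripts of cuticle collagens rise and fall within every moulting cycle.

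Over all 6 libraries the members split by direction, but without wild-type replicate 1 all 6 log2 fold changes were positive. For dpy-2, dpy-3, dpy-7 and dpy-10 they were then 0.11 to 0.69 (SE 0.46 to 0.67, edgeR adjusted p from 0.569 to 0.95). Transcripts of dpy-8 were higher in all 3 plp-1(ok2155) libraries than in any wild-type library. The difference did not pass the test over all genes in edgeR. Such a separation with the mutant above was found in 8.75% of all tested genes and in 12 of 15 other body-shape collagens. Transcripts of dpy-9 leaned higher in plp-1(ok2155) with overlapping groups. Those of dpy-2, dpy-3, dpy-7 and dpy-10 overlapped between the groups in 5 of the 6 libraries. Wild-type replicate 1 stood at 3.70 to 7.36 times the highest of those 5, which set the negative fold changes of these genes. For dpy-10 the high value lay on a transcript model listed as noncoding. No furrow collagen passed an adjusted p of 0.05 in edgeR's quasi-likelihood test (1 of 6 at an unadjusted p under 0.05), a test that called 0.345% of the 15090 tested genes (0.265% higher and 0.0795% lower in plp-1(ok2155)). An unadjusted p under 0.05 was reached by 9.56% of all tested genes, 6.36% higher and 3.2% lower.

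Total counts were 46665815, 46800016 and 41925388 in plp-1(ok2155) replicates 1, 2 and 3, and 53486099, 50106030 and 39331848 in wild-type replicates 1, 2 and 3. The transcript of plp-1 itself averaged 20.4 ± 2.7 CPM (counts scaled to a common library size, SD, n = 3) in plp-1(ok2155) and 367 ± 69.2 CPM in wild-type N2, with no overlap. Wild-type replicate 1 stood apart from the other libraries on the second principal component, at 95.8 against -51.7 to 23.9. On the first component (38.8% of the variance) plp-1(ok2155) replicate 3 lay at 2.36, between 79.0 and 74.2 for the other mutant libraries and -69.6 to -33.8 for the wild-type libraries. Without that library dpy-8 had a log2 fold change of 2.35 (edgeR adjusted p = 0.221), and no member changed its sign. Wild-type replicate 1 also held the lowest summed level of the 6 yolk protein genes, a mark of adults. It stood at 37125 CPM against 44681 to 159710 CPM in the other 5 libraries. Its summed level of 159 numbered col collagens was the lowest as well, at 6135 CPM against 15290 to 30353 CPM. The fold changes of the members are therefore given with and without wild-type replicate 1. The part of these differences in the furrow collagen values was not tested. In whole animals, fewer cells of a type and less RNA per cell cannot be told apart.

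The gene dpy-8 lies on chromosome X from 5148804 to 5150476 on the minus strand (WBcel235, Ensembl annotation) and has 4 exons and 452 codons, the longest reading frame of the 6. It held 47, 84 and 77 counts in plp-1(ok2155) replicates 1, 2 and 3, and 6, 18 and 10 counts in the wild-type replicates. Scaled to library size these were 1.04, 1.67 and 1.85 CPM in plp-1(ok2155), and 0.0929, 0.38 and 0.30 CPM in wild-type N2. Every mutant library lay above every wild-type library, and the lowest value belonged to wild-type replicate 1. Over all tested genes the groups did not overlap in 14.2%, with the mutant above in 8.75% and below in 5.49%. The means were 1.52 ± 0.422 CPM in plp-1(ok2155) and 0.258 ± 0.148 CPM in wild-type N2 (SD, n = 3 each). The log2 fold change was 2.57 (SE 0.65, edgeR quasi-likelihood test, adjusted p = 0.168).

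Without wild-type replicate 1 the log2 fold change of dpy-8 was 2.14 (SE 0.56, edgeR adjusted p = 0.246), so the direction did not rest on that library. Without it 0.148% of tested genes were called. DESeq2 gave dpy-8 an adjusted p of 0.00846, in a test that called 3.76% of its genes, 3.09% higher and 0.668% lower in plp-1(ok2155). Over all 13 alternatives the adjusted p of dpy-8 ran from 0.00846 to 0.557, and DESeq2 was the single alternative that called it. The 3' untranslated end of dpy-8 shares 109 exonic bases with C31H2.14 on the opposite strand. The deposited dpy-8 model holds the coding part alone, from 5148914 to 5150432, which starts beyond the end of C31H2.14 at 5148912. C31H2.14 held 3.13, 3.81 and 3.07 CPM in plp-1(ok2155) and 0.759, 4.69 and 2.22 CPM in wild-type N2, so its groups overlapped where those of dpy-8 did not.

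The gene dpy-9 lies on chromosome IV from 257403 to 259204 on the minus strand, with 4 exons and 315 codons. It held 62, 192 and 105 counts in plp-1(ok2155), which is 1.38, 3.81 and 2.52 CPM. The wild-type libraries held 51, 64 and 47 counts, or 0.790, 1.35 and 1.41 CPM. The groups overlapped, since plp-1(ok2155) replicate 1 fell between wild-type replicates 2 and 3. The means were 2.57 ± 1.22 CPM in plp-1(ok2155) and 1.18 ± 0.343 CPM in wild-type N2 (SD, n = 3 each), and the edgeR log2 fold change, 1.12 (SE 0.53, adjusted p = 0.557), was 0.89 (SE 0.55, adjusted p = 0.493) without wild-type replicate 1. A shorter dpy-9 transcript of 633 coding bases held 8 counts in plp-1(ok2155) replicate 3 and 7 in wild-type replicate 2, and was listed at 0 in the other 4 libraries. The transcript of 948 coding bases held at least 89.1% of dpy-9 counts in every library.

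The gene dpy-2 lies on chromosome II from 6714292 to 6715971 on the plus strand, with 5 exons and 380 codons. It held 231, 129 and 184 counts in plp-1(ok2155), which is 5.13, 2.56 and 4.42 CPM. In wild-type N2 it held 2440, 105 and 159 counts, which is 37.8, 2.22 and 4.77 CPM. Wild-type replicate 1 was 7.36 times the highest of the other 5 libraries, and those 5 overlapped between the groups. The log2 fold change was -1.89 (SE 0.95, edgeR adjusted p = 0.595), and without wild-type replicate 1 it turned to 0.20 (SE 0.52, adjusted p = 0.873).

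The gene dpy-3 lies on chromosome X from 2144605 to 2145647 on the minus strand, with 2 exons and 302 codons, the shortest reading frame of the 6. Its levels were 2.96, 1.33 and 1.83 CPM in plp-1(ok2155) against 14.8, 1.01 and 1.5 CPM in wild-type N2. Wild-type replicate 1 was 5.02 times the highest of the others. It had a log2 fold change of -1.51 (SE 0.97, adjusted p = 0.683, edgeR) that turned to 0.69 (SE 0.53, adjusted p = 0.569) without it.

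The gene dpy-7, whose promoter is widely used to drive expression in the worm epidermis, lies on chromosome X from 7536467 to 7537792 on the minus strand, with 2 exons and 318 codons. Its levels were 4.73, 2.50 and 6.24 CPM in plp-1(ok2155) against 24.7, 1.65 and 6.66 CPM in wild-type N2. Wild-type replicate 1 was 3.70 times the highest of the others, the smallest such ratio of the 4 genes, because wild-type replicate 3 and plp-1(ok2155) replicate 3 were also high. Its edgeR estimate on the log2 scale, -1.29 (SE 0.85, adjusted p = 0.692), turned to 0.11 (SE 0.67, adjusted p = 0.95) without that library.

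The gene dpy-10 lies on chromosome II from 6710149 to 6712227 on the minus strand, with 5 exons and 356 codons. Beside it, dpy-2 is read in the opposite direction, with 2064 bases between the annotated gene ends. Levels of dpy-10 were 14.4, 9.27 and 5.93 CPM in plp-1(ok2155) against 66.4, 8.10 and 9.38 CPM in wild-type N2. Wild-type replicate 1 was 4.61 times the highest of the others. In edgeR the log2 fold change, -1.50 (SE 0.81, adjusted p = 0.622), turned to 0.17 (SE 0.46, adjusted p = 0.882) without it.

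The values of dpy-10 carry a further limit. Of its 3 deposited transcript models, the longest is listed as noncoding and spans 6710156 to 6712931 with 1629 bases. That model took 90.9%, 92.1% and 85.0% of the dpy-10 counts in plp-1(ok2155) and 99.1%, 86.9% and 87.9% in wild-type N2. The coding model of 1071 bases held 58, 36 and 33 counts in plp-1(ok2155) and 38, 49 and 35 in wild-type N2, so wild-type replicate 1 was not high on it. In the Ensembl annotation a separate gene on the same strand, T14B4.19, covers 6711011 to 6712931 and shares 780 exonic bases with dpy-10. Reads of these overlapping transcripts cannot be told apart in the deposited counts, and the counts of dpy-10 are uncertain to that extent.

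**Figure D1:**
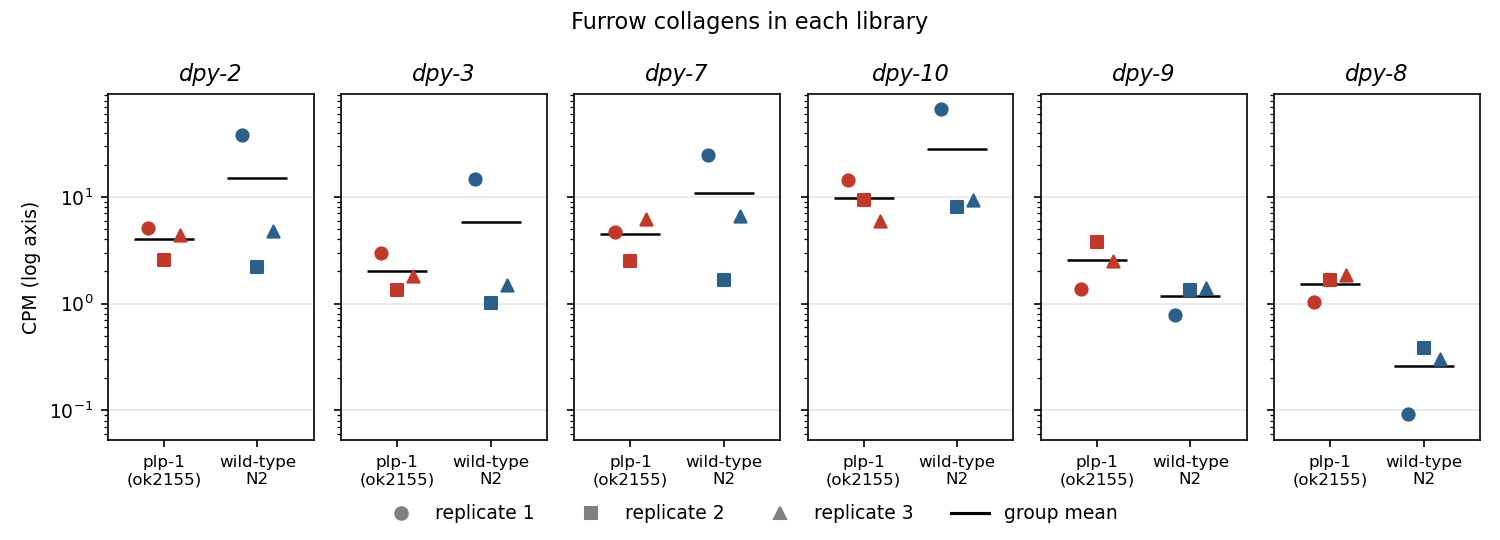
Level of each furrow collagen in CPM (log axis) in every library, with plp-1(ok2155) on the left and wild-type N2 on the right of each panel, marker shape for the replicate number and a bar for the group mean (n = 3). Wild-type replicate 1 lies above all other libraries for dpy-2, dpy-3, dpy-7 and dpy-10 and below them for dpy-9 and dpy-8.

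Per kilobase of transcript, as FPKM in the authors' deposited table, the order of the levels in plp-1(ok2155) was dpy-10 (6.18 ± 2.40), dpy-7 (4.48 ± 1.76), dpy-2 (3.38 ± 0.96), dpy-9 (2.69 ± 1.41), dpy-3 (2.14 ± 0.778) and dpy-8 (1.09 ± 0.328; SD, n = 3 each). The place of dpy-10 rests on its noncoding model: on its coding model of 1071 bases it held 1.11, 0.678 and 0.697 FPKM in plp-1(ok2155) and 0.627, 0.860 and 0.783 FPKM in wild-type N2. Each member overlapped its neighbour in the order given except dpy-8, whose highest FPKM of 1.3 lay below the lowest dpy-3 value of 1.51. In wild-type N2 the order of the means was dpy-10 (19 ± 24.5), dpy-2 (14.4 ± 20.5), dpy-7 (12.3 ± 15.2), dpy-3 (7.05 ± 10.2), dpy-9 (1.17 ± 0.203) and dpy-8 (0.164 ± 0.0828). For the first 4 each SD exceeded its mean, because wild-type replicate 1 was high in all of them. Within the wild-type libraries dpy-10 was 1.24, 2.74 and 1.48 times dpy-2, and dpy-2 was 2.03, 1.76 and 2.53 times dpy-3. The ratio of dpy-7 to dpy-2 was 0.780, 0.889 and 1.67, so their order was not the same in every wild-type library. The values of dpy-8 again lay wholly below those of its neighbour. Without wild-type replicate 1 the wild-type means were 4.91 for dpy-10, 3.6 for dpy-7 and 2.57 for dpy-2. Those of dpy-9, dpy-3 and dpy-8 were 1.28, 1.17 and 0.208, which gives the order of the plp-1(ok2155) means. Neither wild-type library held that order alone. Replicate 2 had dpy-2 (1.75) above dpy-7 (1.56), and replicate 3 had dpy-7 (5.65) above dpy-10 (5.03).

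The share of each member in the summed furrow collagen FPKM needs no scaling between libraries. Shares within a library trade off against each other. The high levels of dpy-2, dpy-3, dpy-7 and dpy-10 in wild-type replicate 1 therefore lower the shares of dpy-8 and dpy-9 there. The share of dpy-8 was 3.17%, 6.97% and 6.65% in plp-1(ok2155) and 0.0564%, 2.25% and 1.05% in wild-type N2, with no overlap. The share of dpy-9 was 6.01%, 23% and 13.2% in plp-1(ok2155) and 0.703%, 12.6% and 7.19% in wild-type N2, with overlap. Together dpy-2, dpy-3, dpy-7 and dpy-10 made up 90.8%, 70.0% and 80.1% in plp-1(ok2155), against 99.2%, 85.1% and 91.8% in wild-type N2, with overlap. The value of dpy-10 in these sums rests mostly on its noncoding model. The FPKM ratio of dpy-2 to dpy-3 stayed between 1.38 and 2.53 in all 6 libraries, while that of dpy-7 to dpy-8 was 6.44, 2.13 and 4.79 in plp-1(ok2155) and 391, 6.48 and 32 in wild-type N2. Members of 1 library share its animals and depth, so these ratios describe the libraries and were not tested.

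**Figure D2:**
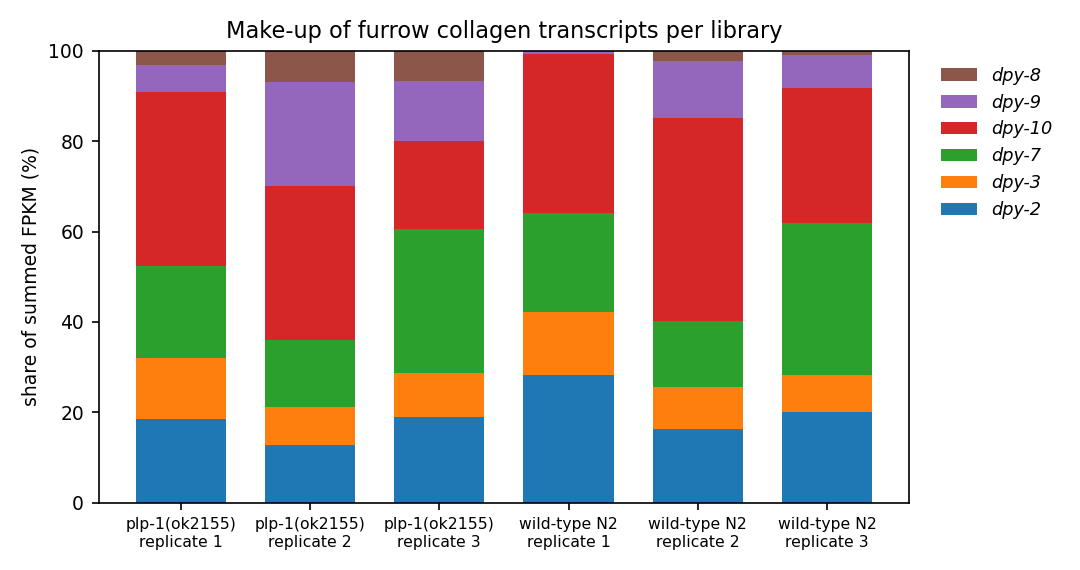
Share of each furrow collagen in the summed FPKM of the 6 genes (%), for plp-1(ok2155) replicates 1 to 3 and then wild-type N2 replicates 1 to 3. The segment of dpy-8 is 3.17% to 6.97% in the mutant libraries and 0.0564% to 2.25% in the wild-type libraries.

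Over the 6 libraries, log2 CPM of dpy-2, dpy-3, dpy-7 and dpy-10 correlated with each other at Pearson's r from 0.769 to 0.978 (6 pairs), and dpy-8 with dpy-9 at 0.875. The 8 correlations between those sets ran from -0.727 to -0.551. With 6 points that share wild-type replicate 1 as an extreme, these coefficients restate the separation of that library and carry no test.

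The sum over the 6 genes was 29.7, 21.1 and 22.8 CPM in plp-1(ok2155) and 145, 14.7 and 24 CPM in wild-type N2. As a share of the summed FPKM of all furrow, other body-shape and numbered col collagens, the furrow collagens made up 0.127%, 0.101% and 0.0600% in plp-1(ok2155) and 1.53%, 0.0451% and 0.0867% in wild-type N2. They were thus a small part of collagen messenger RNA in every library, and wild-type replicate 1 combined the highest furrow level with the lowest total of collagens.

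**Figure D3:**
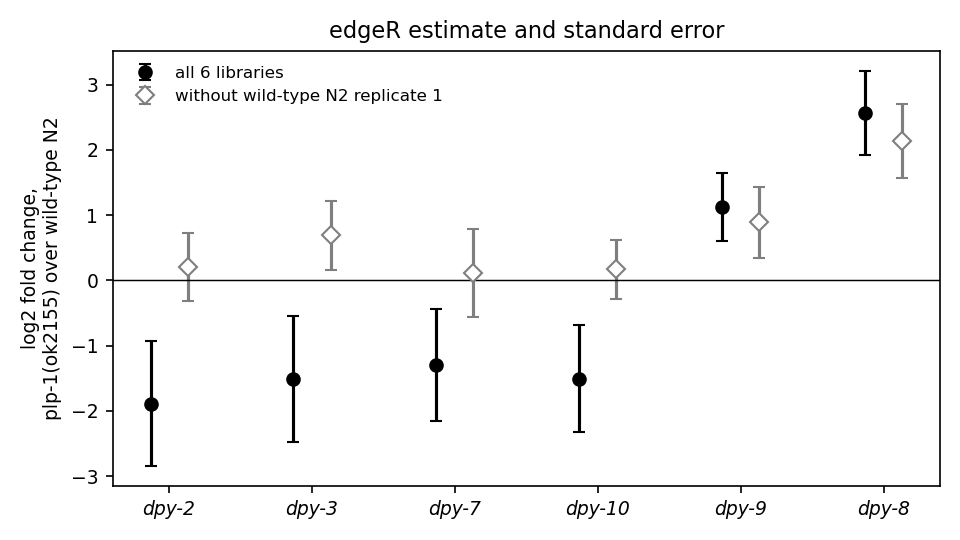
The edgeR log2 fold change of plp-1(ok2155) over wild-type N2 with its standard error for each furrow collagen, with all 6 libraries (filled circles) and without wild-type replicate 1 (open diamonds). The estimates of dpy-2, dpy-3, dpy-7 and dpy-10 move from between -1.89 and -1.29 to between 0.11 and 0.69, while dpy-8 stays at 2.57 and 2.14.

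The median log2 fold change of the 6 members was -1.40, with 2 positive, and without wild-type replicate 1 it was 0.45 with all 6 positive. Over all tested genes the medians were -0.03 with and -0.03 without that library, and 47.5% of log2 fold changes were positive. Without that library 7294 of 15090 were positive. Adding the replicate number as a block, which called 1.45% of all tested genes (1.03% higher and 0.424% lower), left all 6 uncalled, with dpy-8 at 2.70 (SE 0.62, edgeR adjusted p = 0.0712) and the other 5 at adjusted p from 0.343 to 0.757.

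Other collagens that shape the body, taken from a list of 15 genes outside the furrows, were mostly higher in plp-1(ok2155). Of these 15, 1 rose and none fell over all genes in edgeR, where the background for rises is 0.265%. Their median log2 fold change was 3.32, with 12 positive, and all 12 showed no overlap between the groups, against 8.75% of all tested genes with the mutant above. Without wild-type replicate 1 the median was 3.12 with 14 positive. The gene that rose was sqt-1, a collagen whose mutants roll or are squat, with 3.16, 5.76 and 8.77 CPM in plp-1(ok2155) and 0.279, 0.465 and 0.450 CPM in wild-type N2 (log2 fold change 3.89, SE 0.56, edgeR adjusted p = 0.0382). Without wild-type replicate 1 its log2 fold change was 3.67 (edgeR adjusted p = 0.114). With the replicate block 10 of the 15 rose, against 1.03% of all tested genes.

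For rol-6, whose mutants roll, the log2 fold change was 3.32 (edgeR adjusted p = 0.0937; blocked fit, 0.031). For lon-3, which acts on body length, it was 4.21 (edgeR adjusted p = 0.0679; blocked fit, 0.0303). The collagens of the rings between furrows, dpy-5 and dpy-13, stood at 3.71 (edgeR adjusted p = 0.134; blocked fit, 0.00114) and 4.57 (edgeR adjusted p = 0.141; blocked fit, 0.00213). The gene bli-1, a collagen of the struts in the adult cuticle, stood at 3.32 (edgeR adjusted p = 0.139; blocked fit, 0.0305). Among 141 tested collagens, dpy-8 ranked 43rd by fold change and 16th by p. The 5 body-shape collagens named here had the same direction as dpy-8 and larger fold changes.

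The other 3 body-shape collagens, dpy-14, dpy-17 and sqt-3, had negative fold changes without being called. On the log2 scale dpy-14 stood at -2.17 (edgeR adjusted p = 0.492), dpy-17 at -1.66 (adjusted p = 0.585) and sqt-3 at -1.42 (adjusted p = 0.686). Levels of dpy-17 were 50.5, 19.5 and 23.3 CPM in plp-1(ok2155) and 232, 24.3 and 37.4 CPM in wild-type N2. Levels of sqt-3 were 31.7, 12.2 and 22.8 CPM in plp-1(ok2155) and 151, 10.8 and 16.6 CPM in wild-type N2. In both genes wild-type replicate 1 alone was high. Without that library the log2 fold change was -0.39 for dpy-14, 0.0025 for dpy-17 and 0.69 for sqt-3, so the negative direction did not hold for dpy-17 and sqt-3.

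Counted over all tested genes, wild-type replicate 1 was at least 4-fold above each of the other 5 libraries in 1.18% of 15090 genes. The fold of 4 was chosen after the values were seen. For dpy-10 the ratio rested on its noncoding model. Its coding model held 38 counts in wild-type replicate 1 against 33 to 58 in the other libraries. With dpy-10 just inside at 4.61 and dpy-7 just outside at 3.70, 3 of the 6 furrow collagens met the fold of 4. It was also met by 3 of 15 other body-shape collagens, by 2 of 120 tested numbered col genes, by 5 of 29 cuticulins, which are noncollagenous proteins of the cuticle, and by 2 of 22 genes of the apical matrix and moulting. Of the last, lpr-3, a lipocalin of the matrix that precedes the cuticle, held 7.60, 3.85 and 3.67 CPM in plp-1(ok2155) and 35.7, 2.37 and 2.43 CPM in wild-type N2. The gene noah-1, a zona pellucida domain protein of that matrix, held 37.2, 16 and 10.5 CPM in plp-1(ok2155). It held 126 CPM in wild-type replicate 1, 3.40 times the highest of the others, and did not meet the fold of 4.

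**Figure D4:**
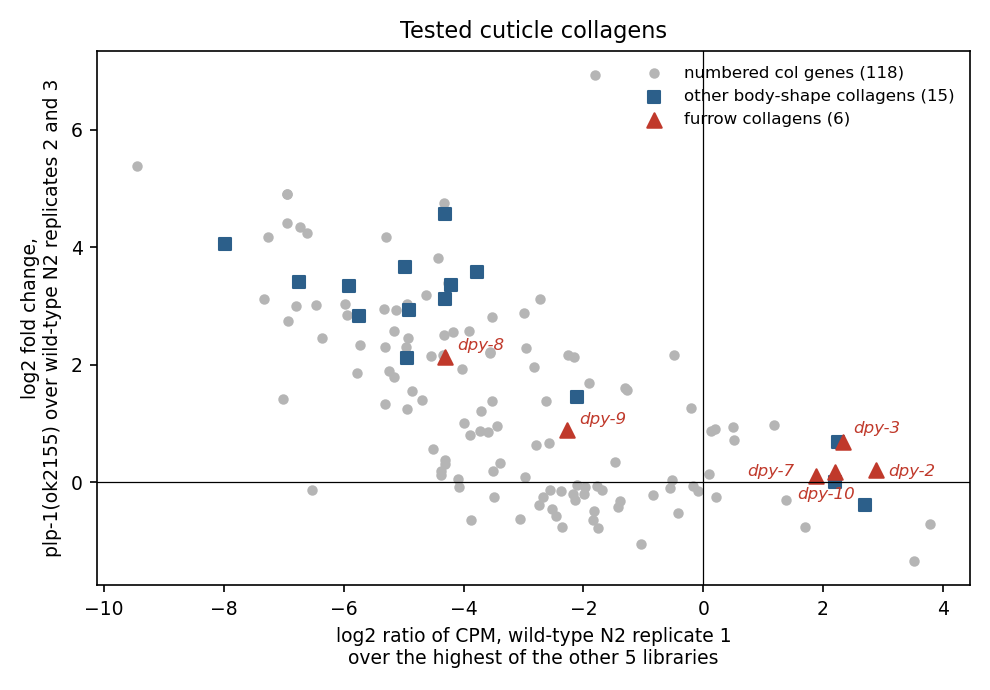
Each of 139 tested cuticle collagens by the log2 ratio of its CPM in wild-type replicate 1 to the highest of the other 5 libraries (horizontal) and by its edgeR log2 fold change of plp-1(ok2155) over wild-type replicates 2 and 3 (vertical); 2 further genes with 0 counts in wild-type replicate 1 are not drawn. The axes share libraries, so no correlation is given; dpy-8 lies at 2.14 among the other body-shape collagens, and dpy-2, dpy-3, dpy-7 and dpy-10 lie right of 0 with fold changes from 0.11 to 0.69.

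Of the 120 tested numbered col genes, none passed the test over all genes in edgeR. At an unadjusted p under 0.05 there were 45 higher and 2 lower, against 6.36% and 3.2% of all tested genes. DESeq2 and the blocked fit each called 22 higher, against 3.09% and 1.03% of all genes. The median log2 fold change was 1.28 with 96 positive. It leaned on plp-1(ok2155) replicate 3, since without that library it was 0.17 with 70 positive. The mean log2 CPM of these genes was 2.79, 2.79 and 4.64 in plp-1(ok2155) and 1.56, 2.17 and 2.73 in wild-type N2. Of the 3 adult cuticle collagens none was called in edgeR (unadjusted p under 0.05 for 0), and DESeq2 gave an adjusted p for col-19 alone, which it did not call. The best known of them, col-19, stood at -0.26 (edgeR adjusted p = 0.893), while col-62 held 1.31, 1.45 and 20.0 CPM in plp-1(ok2155) and 1.53, 1.80 and 4.74 CPM in wild-type N2, so that plp-1(ok2155) replicate 3 alone was high.

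Genes for making, processing and secreting collagens gave no call. The list holds prolyl hydroxylases, disulphide isomerases, processing proteases and the cross-linking oxidases, with genes such as sec-23 and tsp-15 that are not enzymes. Of its 20 tested genes none passed over all genes in edgeR (unadjusted p under 0.05 for 0, DESeq2 calls 0). Their median log2 fold change was 0.19 and the range -0.63 to 0.75; without plp-1(ok2155) replicate 3 the median was -0.05. The prolyl 4-hydroxylase gene dpy-18 averaged 20.1 ± 5.59 CPM in plp-1(ok2155) and 18.5 ± 9.09 CPM in wild-type N2 (SD, n = 3 each; log2 fold change 0.12, edgeR adjusted p = 0.957). The furin-like protease gene bli-4, which trims procollagens, averaged 227 ± 36.9 CPM in plp-1(ok2155) and 176 ± 19.5 CPM in wild-type N2 (0.37, edgeR adjusted p = 0.680).

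Transcription factors of the epidermis and of the moulting cycle gave none called of 14 tested (unadjusted p under 0.05 in edgeR for 1 higher and 1 lower; DESeq2, 0), with a median of -0.16. Without wild-type replicate 1 that median was 0.24 with 11 of 14 positive. The nuclear receptor gene nhr-23, which drives moulting genes, was at 35.1, 21.3 and 17.7 CPM in plp-1(ok2155) and 33.8, 17 and 17 CPM in wild-type N2, so replicate 1 was the highest in both groups. The GATA factor gene elt-3 stood at 0.12 (edgeR adjusted p = 0.942) and the zinc finger gene blmp-1 at -0.20 (edgeR adjusted p = 0.894). The 2 genes with an unadjusted p under 0.05 were lin-29, a factor of the larva to adult switch, at 1.15 (edgeR adjusted p = 0.444) and bed-3 at -1.87 (edgeR adjusted p = 0.369). The epidermal factor grh-1 had 2.42, 2.34 and 2.55 CPM in plp-1(ok2155) and 12.4, 1.61 and 2.85 CPM in wild-type N2, again high in wild-type replicate 1 alone.

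The lists built around the responses to furrow loss gave no call in edgeR with all libraries and no block. They hold regulators and signalling genes as well as reporters such as nlp-29, gpdh-1 and gst-4. Of 17 tested epidermal antimicrobial peptide genes none passed (unadjusted p under 0.05 for 2 higher; DESeq2, 0), and the median log2 fold change was 0.58 with 15 positive. Without plp-1(ok2155) replicate 3 the median was -0.04 with 8 positive. The reporter gene nlp-29 held 28.9, 30.7 and 91.5 CPM in plp-1(ok2155) and 59.4, 29.9 and 30.6 CPM in wild-type N2 (log2 fold change 0.34, edgeR adjusted p = 0.869). The largest fold changes in this list, 3.29 for cnc-2 and 3.00 for nlp-34 (edgeR adjusted p = 0.245 and 0.470), came with 33.3 and 28.7 CPM in plp-1(ok2155) replicate 3, against at most 3.8 and 2.13 CPM in the other mutant libraries.

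Of 12 osmolyte response genes none passed (unadjusted p under 0.05 for 1 lower; DESeq2, 0), with a median of -0.21. That median was 0.26 with 9 positive without wild-type replicate 1, and -0.85 without plp-1(ok2155) replicate 3. The glycerol-3-phosphate dehydrogenase gene gpdh-1 held 1.24, 1.65 and 6.84 CPM in plp-1(ok2155) and 2.15, 5.18 and 0.540 CPM in wild-type N2 (log2 fold change 0.30, edgeR adjusted p = 0.944). Of 11 detoxification genes none passed (unadjusted p under 0.05 for 0; DESeq2, 0), with a median of 0.17. Leaving out wild-type replicate 1 gave a median of 0.06, and leaving out plp-1(ok2155) replicate 3 one of -0.05. The glutathione transferase gene gst-4 held 12.5, 22.2 and 16.3 CPM in plp-1(ok2155) and 11, 53.3 and 26 CPM in wild-type N2 (-0.82, edgeR adjusted p = 0.692). Of 15 genes of the damage signalling list none passed in edgeR without the block (1 higher at an unadjusted p under 0.05), and 1 rose with the block and with DESeq2, the p38 kinase gene pmk-1, at 1.34 (SE 0.24, edgeR adjusted p = 0.0860; blocked fit, 0.0273).

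Among 22 genes of the apical matrix and moulting none was called in edgeR (unadjusted p under 0.05 for 1 lower; DESeq2, 1 lower). Their median log2 fold change was -0.46, and 0.72 without wild-type replicate 1, with 7 and 19 of the 22 positive. An exception was nas-37, an astacin protease of moulting, with 17.6, 27.2 and 20.3 CPM in plp-1(ok2155) and 78.2, 31.7 and 82.6 CPM in wild-type N2 (-1.56, edgeR adjusted p = 0.174; -1.40 without wild-type replicate 1). The 29 tested cuticulins had none called (unadjusted p under 0.05 in edgeR for 2 higher and 2 lower; DESeq2, 0) and a median of -0.88. With wild-type replicate 1 left out it was -0.22, and with plp-1(ok2155) replicate 3 left out -1.32.

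Markers of other tissues and stages moved between libraries beside the furrow collagens. Among 27 tested sperm msp genes every log2 fold change was positive, the median was 3.09 and none was called in edgeR (unadjusted p under 0.05 for 27; DESeq2, 26; blocked fit, 2). Their summed level was 59.4 to 211 CPM in plp-1(ok2155) and 8.16 to 32.1 CPM in wild-type N2. Oocyte markers summed to 2453 to 6513 CPM in plp-1(ok2155) and 2383 to 3887 CPM in wild-type N2. Early embryo markers summed to 6.87 to 21.9 CPM in plp-1(ok2155) and 4.57 to 12.7 CPM in wild-type N2, with up to 3 of 10 at 0 in a library. Yolk genes summed to 44681 to 94477 CPM in plp-1(ok2155) and 37125 to 159710 CPM in wild-type N2. The median log2 fold changes of muscle, neuron and intestine markers, 10 genes each, were 0.30, -0.20 and -0.57. With wild-type replicate 1 left out these medians came to 0.08, -0.05 and -0.78, and with plp-1(ok2155) replicate 3 left out to -0.07, -0.42 and -0.99. No gene of these lists or of the yolk, oocyte and early embryo lists was called in edgeR with all libraries and no block. The blocked fit called 2 muscle genes higher, unc-22 (edgeR adjusted p = 0.012) and unc-89 (0.0323), and leaving out wild-type replicate 1 gave a call for unc-22 as well (edgeR adjusted p = 0.0409). An unadjusted p under 0.05 was found for 2 oocyte, 1 early embryo and 2 muscle genes, all higher, and for 1 intestine gene, lower, and DESeq2 called 1 early embryo and 2 muscle genes higher and 1 intestine gene lower. Their part in the furrow collagen values was likewise not tested.

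The genes whose log2 CPM followed the mean of the 6 furrow collagens most closely over the 6 libraries were tag-241, ZC247.1, tag-278, ptr-10, somi-1, B0198.3, W06H8.5, K01A2.5, tmd-2 and sorb-1, at Pearson's r from 0.982 to 0.994. These were picked as the highest among 15090 tested genes over 6 libraries, and no test was made. The mean itself was 1.78, 1.52 and 1.76 log2 CPM in plp-1(ok2155) and 2.78, 0.71 and 1.31 in wild-type N2. It joins dpy-8 and dpy-9 with the other members, which correlated negatively with them (r from -0.727 to -0.551). Leaving out wild-type replicates 1 and 2, the libraries farthest from the median, the coefficients over the remaining 4 ran from 0.806 to 0.983. None of these 10 genes is a collagen by its deposited description, and ptr-10 belongs to the Patched-related family. The closest, tag-241, held 10.4, 9.15 and 9.73 CPM in plp-1(ok2155) and 23, 4.1 and 6.45 CPM in wild-type N2.

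None of the nearest protein-coding neighbours of the furrow collagens that were tested was called. T14B4.19, left of dpy-2 and overlapping dpy-10, has no counts of its own here and was not tested. F53B1.9, left of dpy-3, was not tested either. The 9 tested neighbours other than the members themselves had log2 fold changes between -0.58 and 1.04, with edgeR adjusted p from 0.717 to 0.983. The gene T14B4.5, 891 bases beyond dpy-2, held 3.11, 4.37 and 4.90 CPM in plp-1(ok2155) and 3.10, 6.05 and 3.66 CPM in wild-type N2, and so was not high in wild-type replicate 1. The homeobox gene ceh-14, left of dpy-7, held 1.31, 0.754 and 2.74 CPM in plp-1(ok2155) and 1.66, 0.803 and 0.720 CPM in wild-type N2. The gene glb-16, 16 bases from dpy-7, held under 1 CPM in every library.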

How the data were processed

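The authors deposited, per gene and per transcript, an estimated count and an FPKM value for each of the 6 libraries. The submitters' processing notes name the aligners HISAT2 2.1.0 and Bowtie2 2.3.4.1, the assembler StringTie 1.3.4d, the trimmer Trimmomatic 0.38, FastQC 0.11.7 and DESeq2, without their settings; whether counting used strand is not stated there. Per the labels' protocols, a stranded poly(A)-selecting kit was used. The deposited transcript counts between 1 and 50 lay 0 to 1 above FPKM × length × a library constant in 100% of cases (tolerance 0.02), so estimated counts had been rounded up; they entered the tests as deposited, already whole. FPKM per the file headers was used to compare levels between genes. 24 entries without a symbol, holding 0.00236% to 0.0246% of counts, were left out. How reads were shared between overlapping transcripts is not shown.

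Library sizes were scaled by TMM, genes kept by filterByExpr (15090), and plp-1(ok2155) compared with wild-type N2 by edgeR's quasi-likelihood test (4.0.16, R 4.3.3), called at a Benjamini-Hochberg adjusted p under 0.05 over all genes. SEs were computed as the fold change over the root of F. The test was also run on simulated counts. Recovery of changed genes was required there only at a fixed spread between replicates that was below that of the data. The biological coefficient of variation was 47.1% in the data, and 49.9% for dpy-9 to 79.8% for dpy-3 among the members. The simulation thus does not show the power for the furrow collagens. Alternatives were DESeq2 (1.42.0) on the same genes, RLE and upper-quartile scaling, other filters, a replicate block and leaving out libraries. Same-numbered libraries deviated together from their group means (r = 0.285, 0.205 and 0.358 for replicates 1, 2 and 3). No source states that they were paired, so the block is an alternative, given beside results it changes. Log2 CPM used a prior count of 2.

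The members and gene lists were chosen from general knowledge with earlier results of these data known. Named genes were all members, up to 4 with the smallest p in each list, a set of known reporters and regulators, the 10 most correlated genes and nearest neighbours. Not every gene so chosen is described. Coordinates are 1-based on WBcel235.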

Additional observations from a re-analysis of the deposited data

How the results depend on the processing

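The log2 fold changes of the 6 furrow collagens kept direction and side of the threshold in 69 of the 77 comparisons with an alternative that gave an adjusted p. As none was called in the main fit, this count says little about how far the estimates moved. With the block dpy-2, dpy-3, dpy-7 and dpy-10 moved to -0.88, -0.54, -0.60 and -0.88, and these count as kept. DESeq2 called dpy-8 (2.59, adjusted p = 0.00846), so that 1 furrow collagen was called there against 0 in edgeR, and it gave no p for dpy-3. Leaving out wild-type replicate 1 reversed dpy-2 (0.20), dpy-3 (0.69), dpy-7 (0.11) and dpy-10 (0.17). Leaving out replicate 1 of both groups, an alternative chosen after seeing the data, gave 0.00086 for dpy-2, 0.33 for dpy-3 and 0.077 for dpy-7, also reversed, and -0.20 for dpy-10. Over all settings that left out libraries the log2 fold changes ran from -2.50 to 0.20 for dpy-2, -2.12 to 0.69 for dpy-3, -1.88 to 0.11 for dpy-7, 2.14 to 2.97 for dpy-8, 0.72 to 1.42 for dpy-9 and -2.07 to 0.17 for dpy-10, with 0 called. Calls over all genes, 40 higher and 12 lower, were 155 and 64 with the replicate block, 463 and 100 with DESeq2, and 0 to 18 and 1 to 5 when 1 library was left out (8 and 1 without replicate 1 of both groups). Without wild-type replicate 2 none was higher in edgeR (899 at an unadjusted p under 0.05). Other cuticle collagens called, 1 in edgeR, were 32 with the block, 33 with DESeq2, 0 with upper-quartile scaling (53 at an unadjusted p under 0.05) and 0 whenever libraries were left out (37 to 67). The cause of these shifts was not tested. With 6 to 84 counts per library, dpy-8 is the member whose level depth limits most.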
